A study of Mus musculus with 10 samples.

Results

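Complement is a cascade of plasma and tissue proteins that marks surfaces for removal, draws in leukocytes and can end in a pore in the target membrane. Its routes of activation meet at the convertases, enzymes that cleave C3, and a set of soluble and membrane-bound inhibitors keeps the cascade off the host's own cells. The liver makes most of the plasma pool, but epithelia, fibroblasts and macrophages also transcribe complement genes, and interferon and other inflammatory signals are known to raise several of them. The 8 complement genes described here were set by name, out of 55487 genes in the table. They are the convertase components C3, Cfb, C2 and C4b, the soluble regulators Cfi and Serping1, and the membrane regulators Cd55 and Cd59a.

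The RNA came from colonic intestinal epithelial cells (IECs) of 5 WT mice and 5 RhoB-/- mice, homozygous knockouts of the small GTPase RhoB, all of C57BL/6J background, with 1 library per mouse. No treatment was labelled for either genotype, and the labels give neither age nor sex. The methods state the same general age range in weeks for all mice, and describe the purchased WT mice as male. The cells were shaken off opened colon pieces after EDTA and were not sorted by the steps described, so cells other than epithelium can be present. The methods describe WT mice as purchased and knockout mice as generated at a separate centre, with all mice kept pathogen free at the authors' university. Whether the sequenced animals were littermates is not given. The targeted gene checked the labels, with a Rhob level of 170.5 to 388.7 TPM (transcript abundance corrected for length and scaled to a fixed total within a library) in WT mice and 0.09, 0.10, 0.35 and 0.57 TPM in RhoB-/- replicates 1 to 4. The library labelled RhoB-/- replicate 5 had 110.9 TPM of Rhob, so the check did not bear out its label as a homozygous knockout. It was kept in its labelled group, and values without it are given where they bear on a result. TPM keeps no read depth, so no counting error can be attached to a value, and n is 5 mice per genotype throughout.

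All 10 epithelial markers on a fixed list, among them Epcam, Krt8, Vil1 and Car1, were above 1 TPM, and their summed level was 20875 to 27300 TPM in WT and 22609 to 40042 TPM in RhoB-/- libraries. Car1 alone was 10411 to 23239 TPM of that sum. Among these markers Krt20, a keratin of differentiated epithelium, was called higher in RhoB-/- mice without overlap (log2 difference 1.17, limma adjusted p = 0.00224), as was Vil1, villin of the brush border (0.65, limma adjusted p = 0.00638), and the other 8 were not called. Their part in the results for the complement genes was not tested. Of 10 fibroblast markers, 4 had a mean of at least 1 TPM. Their summed level was 5.03 to 8.10 TPM in WT and 9.0 to 43.0 TPM in RhoB-/- libraries, and the highest value belonged to the library labelled RhoB-/- replicate 5. Of 8 T cell markers 5 reached that mean, with summed levels of 5.90 to 13.1 TPM in WT and 20.1 to 28.5 TPM in RhoB-/- libraries. Of 12 macrophage and myeloid markers 4 did, at 18 to 31.4 TPM and 22.8 to 47.5 TPM. The B and plasma cell list reached 1 TPM only through Sdc1, which epithelium also expresses, and its other 7 markers summed to 0.180 to 1.01 TPM in WT and 0.990 to 14.1 TPM in RhoB-/- libraries. The neutrophil list, at 11.9 to 33.8 TPM in WT and 54.0 to 107.5 TPM in knockout libraries, did so only through Ly6g, and its other 6 markers summed to at most 0.150 TPM in WT and 0.370 to 10.1 TPM in RhoB-/- libraries, with Mpo and Elane at 0 in every library. None of 8 endothelial markers reached a mean of 1 TPM (summed 1.51 to 2.53 TPM in WT, 1.64 to 3.0 TPM in knockout libraries), and the 6 smooth muscle markers summed to 1.41 to 6.46 TPM in WT and 1.69 to 3.89 TPM in RhoB-/- libraries.

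Start-site sequence is shown for C3 and Cd55, the central component of the cascade and one of its brakes, which were both higher in RhoB-/- mice, and for Cd59a, which was near 0. These are the 3 of the 8 genes for which a RefSeq promoter entry was at hand (build GRCm38.p6). Each run holds the 250 bases before the start site, 5′ to 3′ on the gene's own strand. Capitals mark matches, on either strand, to a loose NF-kB pattern (GGG and CC with any 5 bases between), to TTGCNNAA, a C/EBP-like pattern, or to the core of the interferon-stimulated response element (GAAA, any 2 bases, GAAA). The windows lie at chr17:57228137-57228386 (minus strand), chr1:130462745-130462994 (minus strand) and chr2:104095551-104095800 (plus strand).
C3: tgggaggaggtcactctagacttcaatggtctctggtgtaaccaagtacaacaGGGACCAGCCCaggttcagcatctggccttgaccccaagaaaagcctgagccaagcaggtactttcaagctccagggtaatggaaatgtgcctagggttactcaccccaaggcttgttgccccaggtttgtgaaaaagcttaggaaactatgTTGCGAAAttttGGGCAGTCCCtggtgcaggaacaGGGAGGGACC
Cd55: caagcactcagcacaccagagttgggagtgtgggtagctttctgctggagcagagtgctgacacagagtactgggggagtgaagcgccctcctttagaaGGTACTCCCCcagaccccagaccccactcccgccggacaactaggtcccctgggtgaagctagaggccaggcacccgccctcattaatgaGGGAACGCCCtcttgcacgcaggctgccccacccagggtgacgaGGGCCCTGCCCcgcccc
Cd59a: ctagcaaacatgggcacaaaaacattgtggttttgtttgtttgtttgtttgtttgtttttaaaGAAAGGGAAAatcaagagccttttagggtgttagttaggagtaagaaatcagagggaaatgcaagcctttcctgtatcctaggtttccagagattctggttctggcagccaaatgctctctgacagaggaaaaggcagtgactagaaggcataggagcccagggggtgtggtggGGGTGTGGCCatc
The C3 window held 4 matches to the loose NF-kB pattern, of which 2 overlap, and 1 match to TTGCNNAA that begins 45 bases before the start site. The Cd55 window held 4 matches to the loose NF-kB pattern, of which 2 overlap, and none of the other patterns. The Cd59a window held 1 match to the loose NF-kB pattern and 1 to the interferon-stimulated response element core, and no window of the 3 held the gamma-activated site TTCNNNGAA. Over all 32851 promoter windows of this length, 45.8% held the loose NF-kB pattern, 9.56% TTGCNNAA, 7.02% TTCNNNGAA and 2.98% the interferon-stimulated response element core. A match is a description of letters and not a bound site.

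The question put to each gene was whether its level differed between RhoB-/- and WT IECs. Of the 8 genes, 5 had a mean of at least 1 TPM and entered a limma-trend fit over 12870 genes on log2(TPM + 1), on which scale every fold change below is given. A gene was called at an adjusted p below 0.05 (Benjamini-Hochberg) and a fold change above 1.5. C3, Cfb, C2 and Cd55 were called higher in RhoB-/- mice and none was called lower, against 5.58% of all tested genes called higher and 7.13% called lower. Serping1 was not called. The study's own thresholds were an unadjusted p below 0.05 and the same fold change, with no test named for them. Applied to this limma fit, they called all 5 higher, against 6.37% of all tested genes. For each of these 5 the lowest RhoB-/- library was above the highest WT library, as it was for 5.97% of all tested genes. Serping1 reached a mean of 1 TPM only through the RhoB-/- libraries. The median log2 fold change over the 5 genes was 1.39 and over all tested genes -0.13. In bulk RNA, a change in the number of cells of a type and a change in RNA per cell cannot be told apart.

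**Figure D1:**
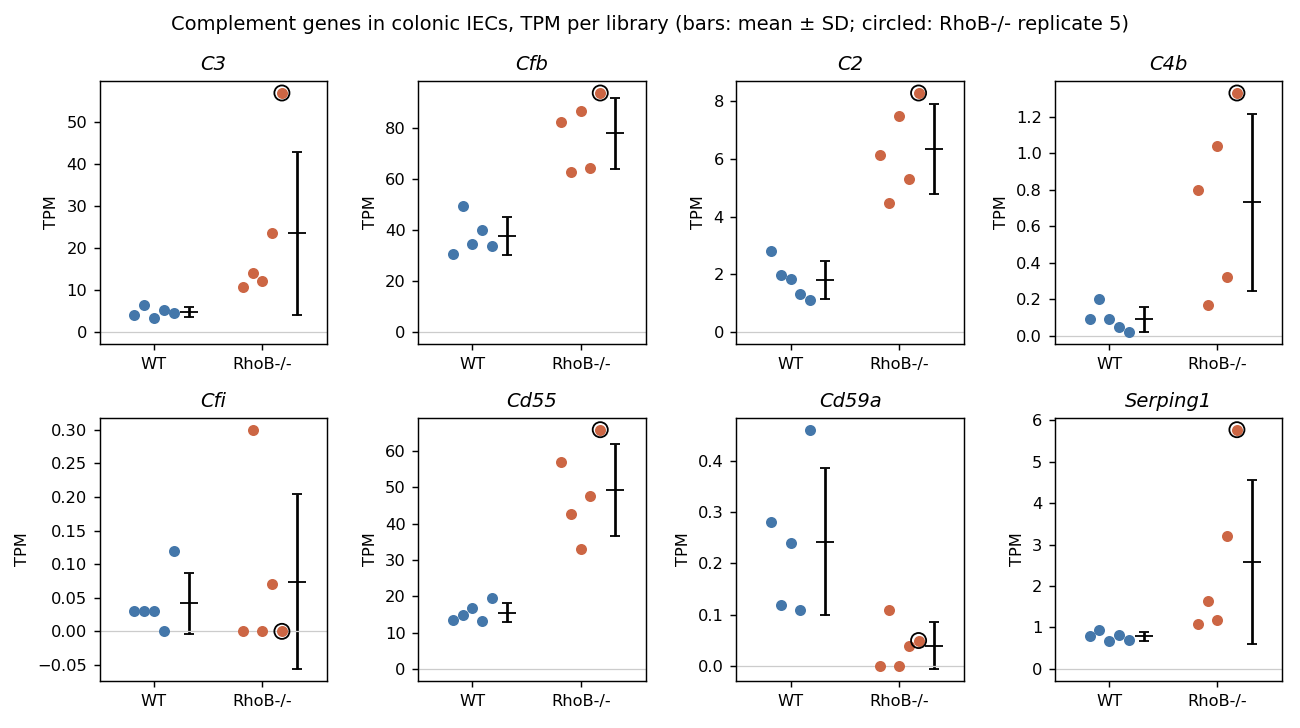
TPM of the 8 complement genes in each library (y axis, linear, a scale of its own per gene), with WT in blue and RhoB-/- in orange, bars for the mean and SD of 5 mice, and a circle round the library labelled RhoB-/- replicate 5. For C3, Cfb, C2, Cd55 and Serping1 every orange point lies above every blue one, while C4b, Cfi and Cd59a stay under 1.4 TPM and overlap.

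In WT IECs the levels ran in the order Cfb, Cd55, C3, C2, Serping1, Cd59a, C4b and Cfi, with means of 37.6, 15.5, 4.77, 1.81, 0.786, 0.242, 0.0900 and 0.0420 TPM. From Cfb down to Cd59a no 2 neighbours in this order had overlapping ranges, and Cd59a, C4b and Cfi overlapped. Cfb was above 78.7% of tested genes in WT mean level and C3 above 26%. In RhoB-/- IECs the first 5 genes kept this order, but only C3 and C2 were neighbours without overlap. Without the library labelled RhoB-/- replicate 5, no 2 neighbours among these 5 genes overlapped. Cfb was then at least 62.65 TPM, Cd55 32.96 to 57.02, C3 10.82 to 23.58, C2 4.48 to 7.47 and Serping1 at most 3.21 TPM. The summed level of the 8 genes was 51.9 to 74.0 TPM in WT and 125.9 to 231.8 TPM in RhoB-/- libraries. Cfb and Cd55 together made up 84.4% to 89.3% of that sum in the WT group and 68.8% to 88.1% in the RhoB-/- group, lowest in the library labelled RhoB-/- replicate 5, where C3 was highest.

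C3 encodes the protein on which all routes of activation converge. The gene spans 57203970 to 57228136 of chromosome 17, minus strand (GENCODE M21, GRCm38; ENSMUSG00000024164). Its level was 4.09, 6.44, 3.29, 5.33 and 4.68 TPM in WT replicates 1 to 5 and 10.82, 13.99, 12.21, 23.58 and 56.90 TPM in RhoB-/- replicates 1 to 5. Every RhoB-/- library was above every WT library, and the library labelled RhoB-/- replicate 5 stood far above the other 4. WT mice averaged 4.77 ± 1.20 TPM (SD, n = 5) and RhoB-/- mice 23.5 ± 19.3 TPM (SD, n = 5). C3 rose on the log2 scale by 1.83 (standard error, SE, 0.37, limma adjusted p = 0.00581), larger than that of all but 1.17% of tested genes. Without that library the RhoB-/- mean was 15.2 ± 5.77 TPM and the log2 difference 1.45 (adjusted p = 0.00198, limma). The coefficient of variation between mice was 25.2% in WT and 82.2% in RhoB-/- mice.

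The summed fibroblast markers were higher in every RhoB-/- than in every WT library, but of the 10 genes only Dcn had groups without overlap. Within the RhoB-/- group, replicates 4 and 5 had the 2 highest C3 levels and the 2 highest summed fibroblast levels, up to 43.0 TPM in replicate 5, while the other 3 libraries had 9.0 to 11.8 TPM. The 2 tested genes whose pattern over the 10 libraries was most like that of C3 were Dcn, the matrix proteoglycan decorin and one of the listed fibroblast markers, and Igfbp6, an insulin-like growth factor binding protein. Likeness was the root mean square difference in log2(TPM + 1) after each gene was centred on its WT mean, 0.31 for Dcn and 0.38 for Igfbp6. Mean Dcn was 2.02 TPM in the WT and 9.74 TPM in the RhoB-/- group. Dcn made up 24.51 of the 43.0 TPM in replicate 5. Of the listed fibroblast markers 6 had a mean under 1 TPM, among them Pdgfra at no more than 0.06 TPM and Lum at no more than 0.19 TPM in any library, and mean Mmp2, Pdgfra and Dpt were lower in RhoB-/- mice, from 0.292 to 0.148, 0.040 to 0.026 and 0.186 to 0.154 TPM. The listed macrophage marker Cd68 was also without overlap, at up to 1.30 TPM in WT mice and 2.0, 2.19, 3.01, 4.13 and 7.39 TPM in RhoB-/- replicates 1 to 5 (log2 difference 1.19, limma adjusted p = 0.0154), again highest in replicates 4 and 5. Mean Cd68 was 0.988 TPM in WT mice, so it reached a mean of 1 TPM only through the RhoB-/- libraries. Of the other listed myeloid markers, mean Mrc1 and Cd163 were lower in RhoB-/- mice, from 0.410 to 0.268 and 0.010 to 0.008 TPM. The rest had higher means with overlapping groups, and none of those tested was called. The myeloid sum, which overlapped, was mostly Cd14, which averaged 20.4 TPM (WT) and 24.5 TPM (RhoB-/-). The part of fibroblasts or macrophages in the C3 difference was not tested.

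**Figure D2:**
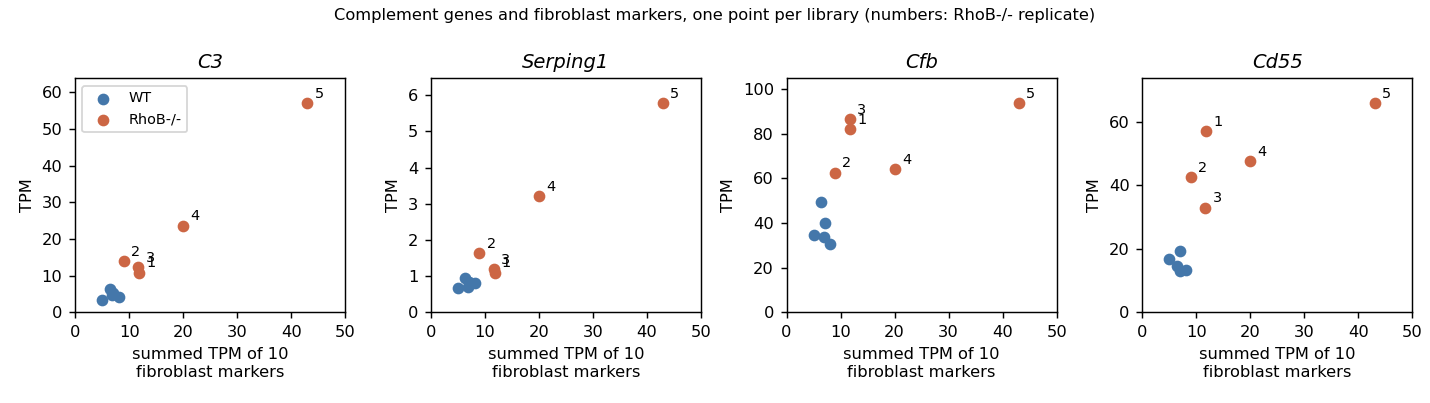
TPM of C3, Serping1, Cfb and Cd55 (y axes, linear) against the summed TPM of 10 fibroblast markers (x axes, linear), 1 point per library, WT in blue and RhoB-/- in orange with its replicate number. Replicates 4 and 5 lie to the right in all panels and are the highest RhoB-/- points for C3 and Serping1. In all 4 panels RhoB-/- replicates 1 to 3, at 9.0 to 11.8 TPM of fibroblast markers, lie above every WT point.

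Cfb encodes factor B, the serine protease of the alternative pathway convertase, and was the most abundant of the 8 genes in both genotypes. Cfb lies on chromosome 17 from 34856374 to 34862518, minus strand. Its level was 30.45, 49.58, 34.58, 39.87 and 33.71 TPM in WT replicates 1 to 5 and 82.16, 62.65, 86.56, 64.25 and 93.62 TPM in RhoB-/- replicates 1 to 5. The groups did not overlap, and the lowest RhoB-/- library was 1.26 times the highest WT library. Cfb rose from 37.6 ± 7.48 TPM (SD, n = 5) to 77.8 ± 13.8 TPM (SD, n = 5), which is a log2 difference of 1.03 (SE 0.16, limma adjusted p = 9.66e-04). Between mice, the coefficient of variation was 19.9% in WT and 17.7% in RhoB-/- mice. The 2 genes closest to it in pattern were Muc13, an epithelial transmembrane mucin, and Slc44a4, a solute carrier, at root mean square differences of 0.13 and 0.14.

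C2 encodes the protease of the classical and lectin pathway convertase, the counterpart of factor B, and lies 85 bases from Cfb on the same strand (chromosome 17, 34862604 to 34898265). Its level was 2.81, 1.98, 1.85, 1.31 and 1.10 TPM in WT replicates 1 to 5 and 6.12, 4.48, 7.47, 5.32 and 8.28 TPM in RhoB-/- replicates 1 to 5. All 5 RhoB-/- libraries were above all WT libraries. C2 rose from 1.81 ± 0.668 TPM (SD, n = 5) to 6.33 ± 1.55 TPM (SD, n = 5), which is a log2 difference of 1.39 (SE 0.19, limma adjusted p = 5.43e-04). The genes closest to C2 in pattern were Batf2, a transcription factor, and Psme2, a subunit of the proteasome activator PA28, both known as interferon-induced, at 0.21 and 0.22. Cfb and C2 are overlapped on the same strand by the annotated readthrough gene Gm20547, which was at most 0.45 TPM, and C2 by Zbtb12 on the other strand at 1.54 to 3.38 TPM. The longest Cfb transcript shared none of its 100-base windows with C2. Without the library labelled RhoB-/- replicate 5, the log2 difference was 0.96 for Cfb (limma adjusted p = 0.00313) and 1.30 for C2 (limma adjusted p = 0.00197).

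C4b, which encodes the classical pathway component cleaved before C2, lies in the same cluster on chromosome 17 (34728380 to 34743882, minus strand) but was below the filter. Its level was 0.09, 0.20, 0.09, 0.05 and 0.02 TPM in WT replicates 1 to 5 and 0.80, 0.17, 1.04, 0.32 and 1.33 TPM in RhoB-/- replicates 1 to 5. The groups overlapped, since RhoB-/- replicate 2 lay within the WT range. C4b was higher in RhoB-/- mice by an exact permutation test over all labellings of the libraries (difference of mean log2(TPM + 1) 0.62, two-sided p = 0.0159, n = 5 each), as were 3.59% of all genes with a mean under 1 TPM. In the limma fit without a filter its adjusted p was 0.0616. C4b shared 16.5% of the 100-base windows of its longest transcript with its near copy C4a, so reads may be split between them. Both genes together were at 0.510 ± 0.266 TPM (WT) and 1.33 ± 0.801 TPM (RhoB-/-) (SD, n = 5 each), a difference of 0.57 that did not pass (exact permutation test, two-sided p = 0.0794).

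Among the regulators, Cd55, decay-accelerating factor, is a membrane protein that takes convertases apart on the cell surface. Cd55 lies on chromosome 1 from 130439027 to 130462744, minus strand. Its level was 13.37, 14.72, 16.78, 13.08 and 19.42 TPM in WT replicates 1 to 5 and 57.02, 42.58, 32.96, 47.67 and 65.80 TPM in RhoB-/- replicates 1 to 5. The groups were well apart, with the lowest RhoB-/- library at 1.70 times the highest WT library. Cd55 rose from 15.5 ± 2.65 TPM (SD, n = 5) to 49.2 ± 12.7 TPM (SD, n = 5), which is a log2 difference of 1.58 (SE 0.18, limma adjusted p = 1.11e-04), the lowest adjusted p of the 5 tested genes. The neighbouring copy Cd55b, which shares 5.5% of the windows of Cd55, was at most 0.25 TPM, and the summed level gave the same difference of 1.58 (p = 0.00794 in the two-sided exact permutation test, which can go no lower here). The genes closest to Cd55 in pattern were Gcnt2, a glycosyltransferase, and Pde9a, a phosphodiesterase, at root mean square differences of 0.15 and 0.16. Without the library labelled RhoB-/- replicate 5 the difference was 1.47 (limma adjusted p = 2.82e-04). The summed T cell and neutrophil markers were, like Cd55, Cfb and C2, higher in every RhoB-/- library than in any WT library, and their part in these results was not tested.

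Serping1 encodes the C1 inhibitor, which blocks the proteases that start the classical and lectin pathways (chromosome 2, 84765387 to 84775444, minus strand). Its level was 0.80, 0.94, 0.67, 0.83 and 0.69 TPM in WT replicates 1 to 5 and 1.09, 1.63, 1.19, 3.21 and 5.77 TPM in RhoB-/- replicates 1 to 5. Every RhoB-/- library was above every WT library, by little in replicates 1 and 3 and by most in replicates 4 and 5, the libraries with the most fibroblast marker RNA. WT mice averaged 0.786 ± 0.110 TPM (SD, n = 5) and RhoB-/- mice 2.58 ± 1.98 TPM (SD, n = 5). The log2 fold change of 0.85 (95% interval 0.20 to 1.5) had an adjusted p of 0.0604 (limma), and the exact permutation test gave the smallest p it allows, 0.00794 (two-sided). Without the library labelled RhoB-/- replicate 5 the log2 difference was 0.58 (adjusted p = 0.108, limma).

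Cfi, the soluble protease that inactivates C3b and C4b, and Cd59a, the membrane inhibitor of pore assembly, were near 0 in both genotypes. Cfi (chromosome 3, 129835884 to 129875332) was 0.03, 0.03, 0.03, 0 and 0.12 TPM in WT replicates 1 to 5 and 0, 0.30, 0, 0.07 and 0 TPM in RhoB-/- replicates 1 to 5, a difference of 0.04 (exact permutation test, two-sided p = 0.754, n = 5 each). Cd59a (chromosome 2, 104095801 to 104115354) was 0.28, 0.12, 0.24, 0.11 and 0.46 TPM in WT replicates 1 to 5 and 0, 0.11, 0, 0.04 and 0.05 TPM in RhoB-/- replicates 1 to 5. The lowest WT and the highest RhoB-/- value of Cd59a were equal. Cd59a was lower in RhoB-/- mice (difference of mean log2(TPM + 1) -0.25, exact permutation test, two-sided p = 0.0159, n = 5 each), as were 5.79% of all genes with a mean under 1 TPM, and its adjusted p was 0.0657 in the limma fit without a filter. With its neighbour Cd59b added the difference was -0.27 (exact permutation test, two-sided p = 0.278). At these levels the number of reads behind a value may be very small and is unknown.

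The rest of the pathway was read from a list of 49 other complement genes, of which 8 were tested, 31 were detected under the filter and 10 were at 0 in every library. The 8 tested had a median log2 fold change of 0.06. Of these, 1 was called higher and 1 lower, against 5.58% of all tested genes called higher and 7.13% called lower. The first was Cpn1, the catalytic subunit of carboxypeptidase N, which trims the anaphylatoxins released by the cascade. Its level was 10.83, 9.0, 22.88, 13.05 and 19.84 TPM in WT replicates 1 to 5 and 30.85, 31.12, 32.77, 48.89 and 61.02 TPM in RhoB-/- replicates 1 to 5, without overlap. Cpn1 rose on the log2 scale by 1.40 (SE 0.26, limma adjusted p = 0.00393). The second was Clu, clusterin, a soluble inhibitor of pore assembly, whose WT mean was 5.65 ± 2.35 TPM (SD, n = 5) and RhoB-/- mean 2.95 ± 1.05 TPM (SD, n = 5). Clu fell by 0.73 on the log2 scale (adjusted p = 0.0444, limma), and its groups overlapped. The call was lost without WT replicate 2, 4 or 5 or RhoB-/- replicate 1, 2 or 3 (log2 difference -0.76 to -0.55, limma adjusted p = 0.0602 to 0.103), with quantile normalization (-0.56, limma adjusted p = 0.0610), with recentring on the median (-0.60, limma adjusted p = 0.0973) and with no filter (-0.73, limma adjusted p = 0.109).

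By role, the membrane regulators included Cr1l (Crry), the rodent inhibitor of convertases, the gene of this role with the highest mean over the 10 libraries. Cr1l was at 44.7 ± 5.66 TPM (SD, n = 5) in the WT group and 45.4 ± 4.93 TPM (SD, n = 5) in the knockout group, a log2 fold change of 0.02 with a 95% interval of -0.23 to 0.28 (adjusted p = 0.90, limma). Of the recognition genes and their proteases, 3 of 16 were tested and none was called. The one of these with the highest mean, C1qa, a subunit of the C1q recognition protein made by macrophages, had 2.50 ± 2.60 TPM (WT) and 2.63 ± 2.23 TPM (RhoB-/-) (SD, n = 5 each). The C1q subunits C1qb and C1qc were under the filter with overlapping groups. Their means were 0.254 and 0.132 TPM (WT) and 0.438 and 0.356 TPM (RhoB-/-). In WT replicate 4, C1qa was at 7.08 TPM, C1qb at 0.13 TPM and C1qc at 0.06 TPM. Fcna, ficolin A, had a lower level in every RhoB-/- library than in any WT library, as did 8.55% of all tested genes, with a log2 difference of -0.50 (adjusted p = 0.0402, limma) that was under the fold threshold. With no fold threshold, 13.5% of all tested genes were lower. Of the 7 terminal pathway genes 1 was tested, Hc, which encodes C5, at 1.78 ± 0.775 TPM (WT) and 1.09 ± 0.642 TPM (RhoB-/-) (SD, n = 5 each; adjusted p = 0.307, limma). Of the soluble regulators outside the 8 genes, C4bp, a cofactor for the cleavage of C4b, was at a log2 difference of 0.20 (adjusted p = 0.489, limma). None of the 9 receptors reached the filter.

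Under the filter, 3 of the other complement genes had groups without overlap, all higher in RhoB-/- mice, against 1.26% of all genes under the filter that were higher and 1.59% that were lower in this way. They were C1s1, Itgax and Itgb2. C1s1, a protease of the C1 complex, was at 0.264 ± 0.0647 TPM (WT) and 1.23 ± 0.836 TPM (RhoB-/-). Itgax and Itgb2 are subunits of the leukocyte integrins that bind cleaved C3. Itgax was at 0.160 ± 0.116 and 0.704 ± 0.358 TPM and Itgb2 at 0.392 ± 0.0968 and 1.55 ± 0.478 TPM (SD, n = 5 each). Groups without overlap always give the smallest exact p, so that test adds nothing for these genes. In the limma fit without a filter, adjusted p was 0.0671 for C1s1, 0.0344 for Itgax and 0.00644 for Itgb2. At an unadjusted exact permutation p below 0.05, 7 of the 31 detected genes under the filter were higher, against 3.59% of all such genes. These included C1s1, Itgax, Itgb2, Colec12, C3ar1 and Cr2. Cpn2 was lower, 1 of the 31, against 5.79% of all such genes. C3ar1 was at most 0.04 TPM, and Cr2 was at 0 in 4 WT libraries. C1s1 was highest in the library labelled RhoB-/- replicate 5, at 2.58 TPM, beside its fibroblast level, and the part of other cell types in these differences was not tested. C3ar1 and C5ar1, the receptors for the anaphylatoxins, did not exceed 0.14 TPM in any library.

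**Figure D3:**
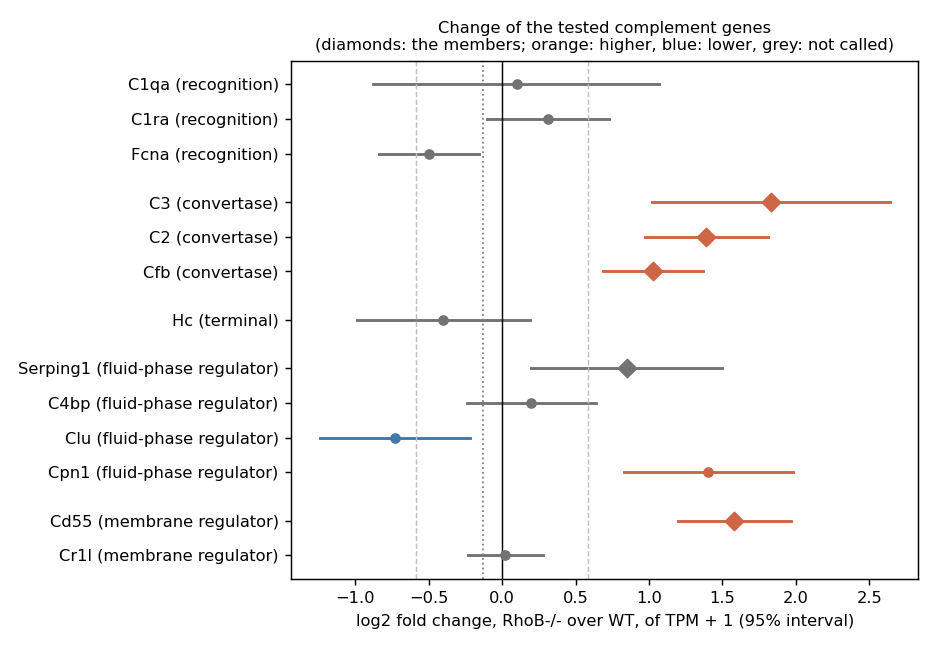
Log2 fold change of TPM + 1 (x axis) with its 95% interval from limma for the 13 tested complement genes, by role, with the 8-gene set as diamonds, dashed lines at a fold change of 1.5 and a dotted line at the median of all tested genes. C3, C2, Cfb, Cd55 and Cpn1 lie to the right of the dashed line with their whole intervals, the interval of Serping1 spans the line at 0.20 to 1.5, and Cr1l sits at 0.02.

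**Figure D4:**
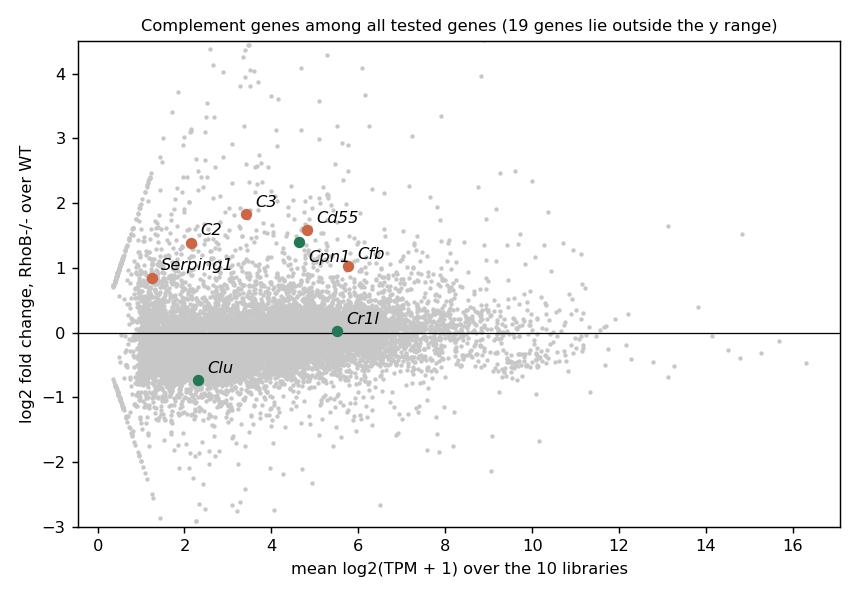
Log2 fold change (y axis, RhoB-/- over WT) against mean log2(TPM + 1) over the 10 libraries (x axis) for all 12870 tested genes in grey, except 19 outside the y range, with the tested members in orange and Cpn1, Clu and Cr1l in green. The tested members lie between 0.85 for Serping1 and 1.83 for C3.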

How the data were processed

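Expression was measured by RNA-seq of colonic IECs in 5 WT and 5 RhoB-/- mice. Sample titles gave each library its genotype and number. Paired reads were trimmed (SeqPrep, Sickle), aligned (HISAT2), assembled (StringTie) and quantified per gene (RSEM) by the authors, and the submitters' processing notes also list edgeR and the build GRCm38.p6. Tool versions and the annotation release are not given in the sources used here. The deposited values are TPM to 2 decimals, which keep no depth, so no count test was run and counting error is unknown.

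Genotypes were compared with limma 3.58.1 in R 4.3.3 (lmFit, eBayes with trend) on log2(TPM + 1) for 12870 genes with a mean of at least 1 TPM, with Benjamini-Hochberg adjustment over all of them. Genes under the filter and summed neighbours were compared by an exact permutation test (scipy 1.17.1, all labellings, two-sided). Exact p-values for single genes are unadjusted. The fit was tested on simulated data. The members, gene lists and rules were chosen with earlier results of these data known. The text names the 8 members, called genes of the complement lists, the most abundant uncalled gene of each role, Rhob, and the 2 tested genes closest in pattern to each called member. Other genes named, among them Fcna and those under the filter, were chosen after their values were seen. 1 listed gene under the filter is counted but not reported here. Gene positions are from GENCODE M21 on GRCm38, in which 55227 of 55487 identifiers were found. Replicate numbers are shared by both genotypes but mark different mice.

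The alternatives were a pseudocount of 0.1, other filters, quantile normalization, TPM without mitochondrial genes, recentring on the median, limma without the trend, a replicate block, each library left out, other call rules and, added after seeing the data, exact tests of listed genes under the filter.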

Additional observations from a re-analysis of the deposited data

Results flagged for a closer look

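Among 28 groups of 5 values, for the 8 members, the summed neighbours, Cpn1, Clu and Rhob, 5 held a library standing far from its 4 companions, and about 1 in 20 groups, or 1.40, would do so by chance. The library labelled RhoB-/- replicate 5 held 2 of these, C3 at 56.90 TPM and Rhob at 110.87 TPM. The others were Cfi at 0.12 TPM in WT replicate 5, Cfi at 0.30 TPM in RhoB-/- replicate 2, and Clu at 9.69 TPM in WT replicate 4.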

How the results depend on the processing

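C3, Cfb, C2 and Cd55 kept their direction and their call under every alternative that gave a value, except that C2 and Serping1 could not be fitted at a mean of at least 5 TPM, which left 3 genes called. Leaving out each library in turn gave log2 fold changes of 1.45 to 2.02 for C3, 0.96 to 1.13 for Cfb, 1.29 to 1.51 for C2 and 1.47 to 1.71 for Cd55, and 4 to 5 members called higher. Serping1 passed in limma with a pseudocount of 0.1 (1.32, adjusted p = 0.0390), quantile normalization (0.97) and recentring on the median (0.98). It also passed without mitochondrial genes (0.87). The exact test (0.85) passed too, but its p is unadjusted and is the same for any gene without overlap. Serping1 values with 1 library left out were 0.58 to 1.01 (adjusted p = 0.0311 to 0.127, limma), past the threshold only without RhoB-/- replicate 1 or replicate 3.

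C4b (0.62) and Cd59a (-0.25) did not pass in the limma fit without a filter. The replicate block, over 32 swaps within a number, gave 0.62 for C4b (exact p = 0.125), -0.25 for Cd59a and 1.58 for Cd55 with Cd55b, where its smallest p is 0.0625. In limma the replicate block kept 4 members higher and moved no count. Deviations of same-numbered libraries correlated at -0.087 to 0.072 over genes, so the numbers were not treated as pairs. C4a with C4b gave 0.42 to 0.76 with 1 library left out, and passed only without RhoB-/- replicate 2 (exact p = 0.0317).

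Of the other complement genes, 1 to 2 were called higher (2 without any one WT library) and 0 to 1 lower with 1 library left out. Higher calls were 2 with no filter and without mitochondrial genes, and 8 with the exact tests under the filter. Lower calls were 0 with no filter, at a mean of at least 5 TPM, with quantile normalization and with recentring, and 2 with a pseudocount of 0.1, without mitochondrial genes, with no fold threshold and with the exact tests. The cause of the other changes in these counts was not tested. Clu kept its direction throughout but its call was lost without WT replicate 2, 4 or 5 or RhoB-/- replicate 1, 2 or 3. Genes near 0 TPM are limited by a depth that is unknown.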
